A study of Rattus norvegicus with 6 samples.

Results

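Cyclic AMP production and effectors were examined in the islets of ageing rats through 10 genes: the adenylyl cyclases Adcy3, Adcy5, Adcy6, Adcy8 and Adcy9, the protein kinase A (PKA) subunits Prkaca and Prkar1a, the transcription factor Creb1, the exchange factor Rapgef4 and the phosphodiesterase Pde3b. Members were taken by gene, and a probe belonged to a member when its RefSeq accession, without the version, was that of the gene. By this rule 8 of the 10 genes had a probe, out of 13903 named genes on the array. No probe was matched to Adcy9 or Rapgef4 (which encodes EPAC2), and their levels were not analysed here. Creb1 had a pair of probes, and the brighter one over the 6 arrays stood for the gene.

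The samples were islets of male Wistar rats aged 3 months and 12 months, with 3 arrays of each age and no other treatment in the labels. Islets were released from the pancreas with collagenase, and their total RNA was labelled with Cy3 for 1-colour arrays run by Arraystar. The comparison asked which transcripts differ between islets of young and of older rats. RNA came from the islets of 3 rats of each age, and the labels do not tie an array to a rat.

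In beta cells, glucagon-like peptide 1 and glucose-dependent insulinotropic polypeptide act on receptors coupled to the stimulatory G protein Gs, which activates adenylyl cyclases to make cyclic AMP from ATP, while inhibitory G proteins of the Gi class restrain them. Cyclic AMP releases the catalytic subunits of PKA from their regulatory subunits and also activates EPAC2, and both routes raise insulin secretion. PKA phosphorylates the transcription factor CREB, which acts at cyclic AMP response elements, and phosphodiesterases end the signal by hydrolysing cyclic AMP.

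One scan read the 3 older arrays and another the 3 young arrays, so a difference with age and a difference between scans cannot be told apart anywhere below. The share of probes well above background, a mark set by the scanner software, was 59.5 to 64.2% on the 12-month arrays and 73.1 to 77.5% on the 3-month arrays. Negative control spots had a median of 89.5 to 91 scanner units at 12 months and 29.5 to 31 at 3 months. Islet hormone transcripts were bright on all arrays, and so were transcripts of acinar cells. The mean log2 level of 8 acinar markers was 17.1 to 18.2 at 12 months and 17.0 to 18.0 at 3 months.

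Levels are given as quantile-normalized log2 intensity, on which 1 unit is a factor of 2, and differences are the 12-month mean minus the 3-month mean. A gene was called where limma's p-value, adjusted by Benjamini-Hochberg over all 17941 tested probes, was under 0.05. Of the 8 measured members, Pde3b and Creb1 were called and both were higher at 12 months. Adcy3 was lower on every 12-month array. Its difference passed the size and nominal p that the study used (a fold larger than 2 and an unadjusted p under 0.05) with limma's p, but not the adjusted threshold. By the paired test that the study used for its own p-values, run over pairs of which 1 rests on an array without a number in the labels, Adcy3 had p 0.0565 and did not pass. The other 5 members did not pass either threshold.

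**Figure D1:**
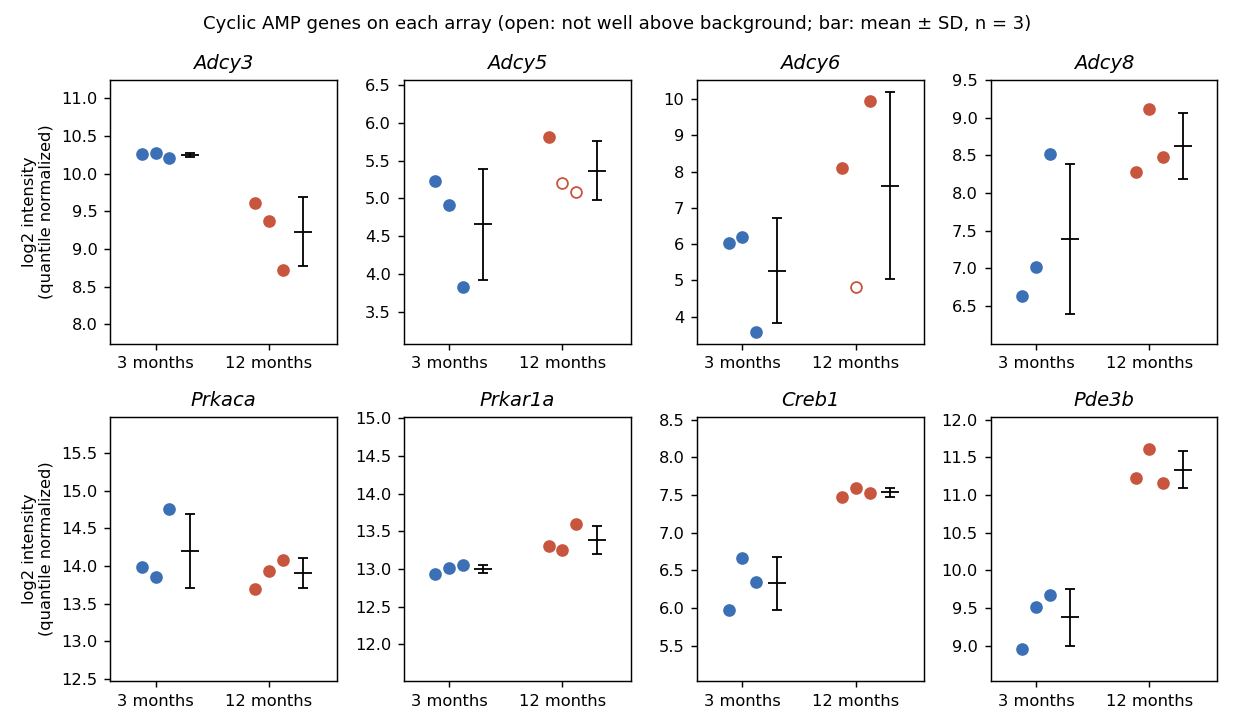
Quantile-normalized log2 intensity (vertical axes, each spanning its own range) of the 8 measured cyclic AMP genes on each array at 3 and 12 months; points are arrays, open points are arrays on which the probe was not well above background, and bars are the mean ± SD (n = 3). Pde3b and Creb1 lie higher and Adcy3 lower on all 3 of the 12-month arrays, and Adcy6 spreads from 4.82 to 9.94 among the 12-month arrays alone.

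Adcy3 encodes an adenylyl cyclase of the calcium/calmodulin-regulated group. On 12-month arrays 1, 2 and 3 its log2 level was 9.61, 9.37 and 8.72, and on 3-month arrays 1, 2 and 3 it was 10.26, 10.27 and 10.21. The young arrays lay within 0.07 of each other on this scale, the older arrays spread more widely, and the ages did not overlap. The means were 9.23 ± 0.46 and 10.24 ± 0.031 (SD, n = 3 each), and the difference was -1.01 ± 0.29 (SE; 95% confidence interval -1.71 to -0.32), a 2.02-fold lower signal at 12 months. Its adjusted p was 0.0737 (limma) and stayed between 0.0562 and 0.378 in 19 alternative analyses, so that Adcy3 was called in none of them, although its unadjusted p was under 0.05 in 16. The value of 0.0737 does pass the alternative threshold of 0.1.

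Adcy8, the calcium/calmodulin-stimulated cyclase tied in beta cells to the joint action of glucose and incretin hormones, had log2 levels of 8.28, 9.11 and 8.48 on the 12-month arrays and 6.63, 7.02 and 8.51 on the 3-month arrays. The third young array reached the level of the older arrays, and the ages overlapped. The difference was 1.23 ± 0.52 (SE; 95% confidence interval -0.0071 to 2.48), with an adjusted p of 0.156 (limma). It did not exceed the spread between arrays at the threshold used.

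Adcy6, which encodes a cyclase inhibited by calcium, was the most variable member. Its log2 level was 8.09, 4.82 and 9.94 on the 12-month arrays and 6.04, 6.19 and 3.59 on the 3-month arrays. On the second 12-month array the probe was not well above background, and that array lay below 2 of the 3 young arrays. The difference of 2.35 ± 1.33 (SE; 95% confidence interval -0.82 to 5.51) had an adjusted p of 0.258 (limma). It ranged from 0.34 to 3.74 over 18 alternatives.

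Adcy5, the cyclase most closely related to Adcy6, was dim. Its log2 level was 5.82, 5.20 and 5.09 on the 12-month arrays, of which only the first was well above background, and 5.23, 4.92 and 3.83 on the 3-month arrays, all of them well above background. The older arrays thus had the higher normalized levels but the weaker marks against background, on arrays whose negative control spots were brighter. The difference was 0.71 ± 0.42 (SE; 95% confidence interval -0.30 to 1.72), with an adjusted p of 0.279 (limma), and the ages overlapped.

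The PKA subunits differed little. Prkaca, the catalytic subunit alpha, had log2 levels of 13.69, 13.94 and 14.08 at 12 months and 13.98, 13.85 and 14.76 at 3 months, and its difference was -0.29 ± 0.31 (SE; 95% confidence interval -1.03 to 0.45; adjusted p 0.535, limma). The ages overlapped, and the interval allows a fall of up to 1.03 or a rise of up to 0.45 on the log2 scale. Prkar1a, the regulatory subunit that holds the catalytic subunit inactive, had log2 levels of 13.31, 13.25 and 13.59 at 12 months and 12.94, 13.01 and 13.05 at 3 months. All 3 older arrays were above all 3 young arrays, but the difference was small, 0.38 ± 0.22 (SE; 95% confidence interval -0.15 to 0.91), and its adjusted p was 0.270 (limma).

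Creb1 encodes CREB, the transcription factor through which cyclic AMP and PKA act on gene expression. On the probe that stood for the gene (RefSeq transcript NM_134443) the log2 level was 7.47, 7.60 and 7.53 on the 12-month arrays and 5.97, 6.67 and 6.35 on the 3-month arrays. The older arrays lay close together and above all young arrays, with means of 7.53 ± 0.062 and 6.33 ± 0.35 (SD, n = 3 each). The difference was 1.21 ± 0.26 (SE; 95% confidence interval 0.59 to 1.82), a 2.31-fold higher signal at 12 months, with an adjusted p of 0.0398 (limma).

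The other Creb1 probe (NM_031017) gave a smaller difference. Its log2 level was 6.68, 6.51 and 6.46 on the 12-month arrays and 5.30, 6.69 and 5.76 on the 3-month arrays, so that the second young array matched the older ones. The difference was 0.63 ± 0.38 (SE; 95% confidence interval -0.27 to 1.53), with an adjusted p of 0.279 (limma). The mean of both probes was 0.92 higher at 12 months, with an adjusted p of 0.102 (limma). The call for Creb1 therefore holds for 1 probe, and it was kept in 6 of 20 alternatives, with the other probe counted among the 20. With each array left out in turn the adjusted p was under 0.05 only without 3-month array 2 (0.047), and it was 0.136, 0.0587, 0.111, 0.107 and 0.09995 without 12-month arrays 1, 2 and 3 and 3-month arrays 1 and 3. With arrays scaled to the same 75th percentile in place of quantile normalization, the difference was 0.97 and its adjusted p 0.0564.

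Pde3b encodes a phosphodiesterase that hydrolyses cyclic AMP and is known in beta cells to dampen insulin secretion. Its log2 level was 11.22, 11.62 and 11.16 on 12-month arrays 1, 2 and 3 and 8.96, 9.52 and 9.67 on 3-month arrays 1, 2 and 3. The lowest older array was above the highest young one by more than the whole range of either age, and the probe was well above background on all 6 arrays. The means were 11.33 ± 0.24 and 9.38 ± 0.38 (SD, n = 3 each), and the difference was 1.95 ± 0.29 (SE; 95% confidence interval 1.27 to 2.64), a 3.87-fold higher signal at 12 months, with an adjusted p of 0.0156 (limma). Over 19 alternatives the difference stayed between 1.66 and 2.18, its unadjusted p was under 0.05 in all 19, and its adjusted p was under 0.05 in 11. The adjusted call was lost without 12-month array 1 (0.0681), without 12-month array 3 (0.0531) and without 3-month array 1 (0.0504).

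**Figure D2:**
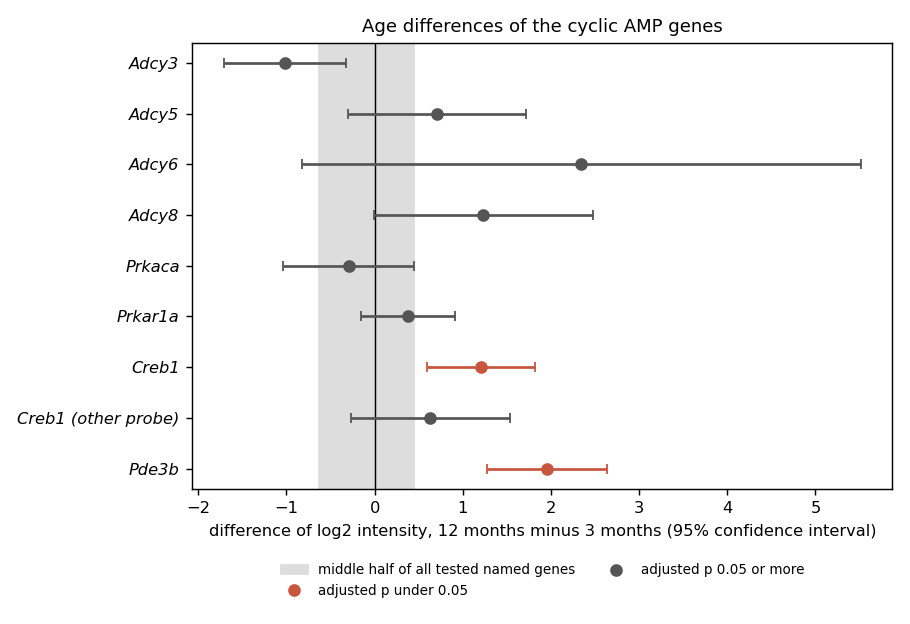
Difference of log2 intensity between 12 and 3 months (horizontal axis) for each measured cyclic AMP gene and for the other Creb1 probe; points are the limma estimates, bars their 95% confidence intervals, and the grey band spans the quartiles of all 11201 tested named genes (-0.63 to 0.45). Pde3b at 1.95 and Creb1 at 1.21 carry an adjusted p under 0.05, and the interval of Adcy6 runs from -0.82 to 5.51.

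Across the 8 members, 6 were higher and 2 lower at 12 months, and their median difference was 0.96, beside -0.13 over the 11201 named genes that were tested. At the adjusted threshold 2 of the 8 were called higher and 0 lower, where 4.87% of the tested named genes were called higher and 2.98% lower. At an unadjusted p under 0.05, 2 members were higher and 1, Adcy3, was lower. No share of named genes is given at that threshold, so these counts have no background here. At the study's fold and nominal p, with limma's p, 2 members were called higher and 1 lower, beside 9.8% and 9.67% of named genes. The arrays of the ages did not overlap for 3 members higher and 1 lower at 12 months, beside 17.1% and 22.3% of named genes, so that an absence of overlap was common on these arrays. With 20 ways to arrange 3 and 3 arrays, the smallest two-sided p of an exact permutation test was 0.1, the value found for Adcy3, Prkar1a, Creb1 and Pde3b. It was 0.3 for Adcy5, Adcy6 and Adcy8 and 0.5 for Prkaca.

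No array was the highest or the lowest of its age for every member. The third 3-month array was the highest young array for Adcy8, Prkaca, Prkar1a and Pde3b, and the lowest for Adcy3, Adcy5 and Adcy6. The third 12-month array was the highest of its age for Adcy6, Prkaca and Prkar1a and the lowest for Adcy3, Adcy5 and Pde3b. With 3 arrays an age, these orders are a description.

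**Figure D3:**
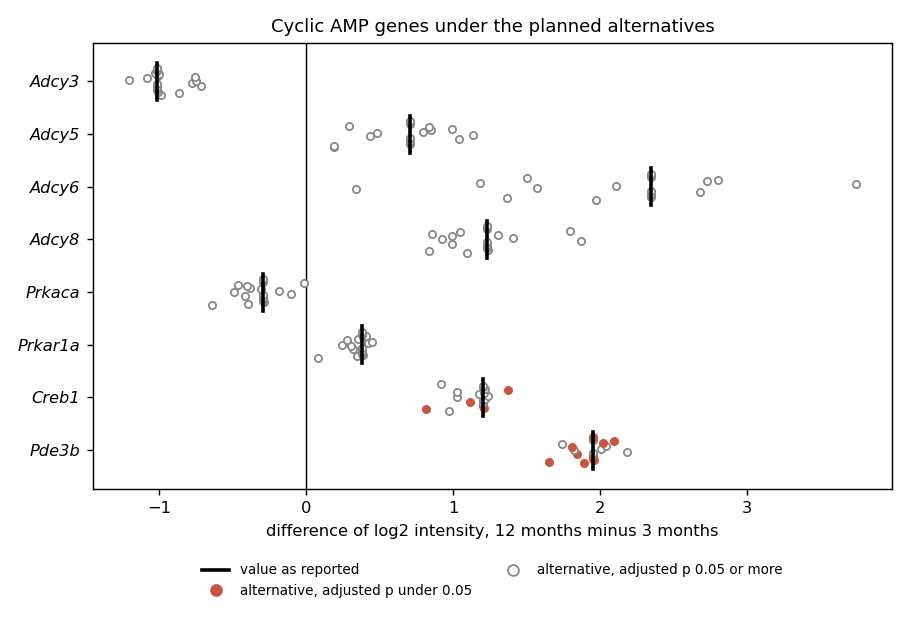
Difference of log2 intensity between 12 and 3 months (horizontal axis) of the 8 measured cyclic AMP genes in each alternative analysis (points; filled where the adjusted p was under 0.05) with the reported value as a bar. Every point of a gene lies on the same side of 0, and filled points occur for Creb1 and Pde3b only.

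Around these genes, 83 further genes of the pathway were taken in 9 lists by role, of which 73 had a probe and 61 were tested. At 12 months 41 of the 61 were higher and 20 lower, with a median difference of 0.18, beside -0.13 over all tested named genes. At the adjusted threshold 7 were called higher and 0 lower (limma). At an unadjusted p under 0.05 there were 18 higher and 4 lower, and at the study's threshold 13 higher and 3 lower. Of the 3 lower genes at the study's threshold, 2 (Gnaz and Sik1) had a probe well above background on no 12-month array, where the bound gives no direction, so that only Pck1 was measured as lower. The shares of all named genes given above are the background for these counts. In 6 tested genes the probe was well above background on no array of 1 age, so only a bound can be given there. The median with those genes at their bound was 0.42. Bounds that give no direction entered that median as positive values.

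**Figure D4:**
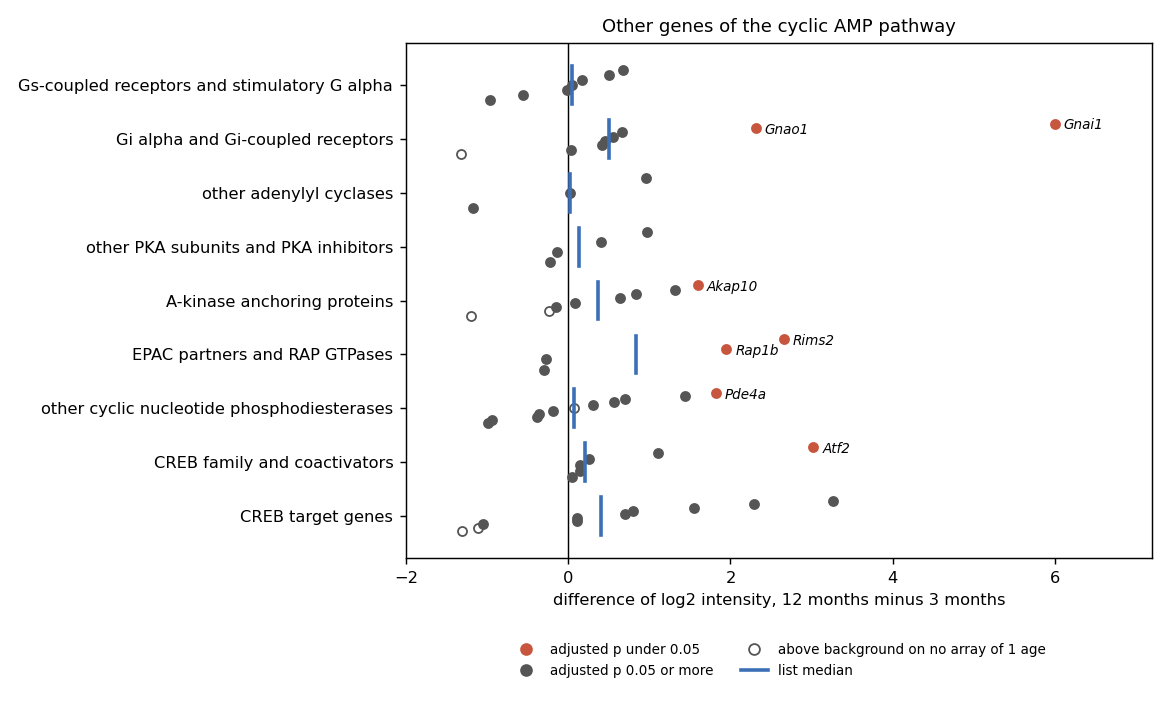
Difference of log2 intensity between 12 and 3 months (horizontal axis) for the 61 other tested genes of the cyclic AMP pathway, by list; each point is a gene, filled red with an adjusted p under 0.05, open where the probe was well above background on no array of 1 age, and the blue bars are list medians. The 7 called genes all lie to the right of 0, from Akap10 at 1.59 to Gnai1 at 5.996.

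Upstream of the cyclases, the receptors and the stimulatory G protein were similar at both ages. Of 7 tested genes of this list none was called at the adjusted threshold and none at an unadjusted p under 0.05, and the median difference was 0.04. Gcgr, the glucagon receptor, was at -0.55 ± 0.28 (SE; adjusted p 0.211, limma). The incretin receptors, chosen here for their role after their values were seen, were Glp1r at 0.04 ± 0.41 (SE) and Gipr at 0.68 ± 0.39 (SE). Gnas, which encodes the stimulatory alpha subunit, was at 0.18 ± 0.29 (SE) on its brightest probe and at -0.13 and -0.36 on its other probes.

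Gnai1 encodes an inhibitory alpha subunit of the Gi class. Its log2 level was 8.65, 8.96 and 8.77 on the 12-month arrays and 2.02, 3.52 and 2.85 on the 3-month arrays, where only the second array was well above background. The difference was 5.996 ± 0.398 (SE; adjusted p 0.00225, limma), and it was 2.89 with normexp background correction. The probe passed the filter on low values through the 12-month arrays, on which it was high. When all 6 arrays had to be above background, Gnai1, Rims2 and Atf2 were not tested. Gnai1 was called with any single array left out, but those fits kept the same filter and its low 3-month values.

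Gnao1, the alpha subunit of Go, had log2 levels of 7.82, 7.51 and 8.27 at 12 months and 4.48, 5.87 and 6.32 at 3 months, a difference of 2.31 ± 0.50 (SE; adjusted p 0.0402, limma). It was called without 12-month array 2 (0.0450) but without none of the other 5 arrays, where the adjusted p was 0.0568 to 0.129. The other tested genes of this list were not called, and 7 of its 8 genes were higher at 12 months. Gnai2 and Gnai3, the other inhibitory alpha subunits, were at 0.04 ± 0.21 and 0.45 ± 0.22 (SE).

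Among the 3 other cyclases that were tested, none was called. Adcy2 was at 0.95 ± 0.37 (SE; adjusted p 0.133, limma) and Adcy10, the soluble cyclase, at -1.18 ± 0.78 (SE; adjusted p 0.326, limma), with Adcy10 well above background on 1 of the 12-month arrays. Of the 4 other PKA subunits and inhibitors that were tested none was called either. Pkib, an inhibitor of the PKA catalytic subunit, was at 0.97 ± 0.37 (SE; adjusted p 0.128, limma), and Prkar2b, a type II regulatory subunit, at 0.41 ± 0.39 (SE; adjusted p 0.482, limma).

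A-kinase anchoring proteins tether PKA to places in the cell. Of the 8 tested, 1 was called. Akap10 had log2 levels of 10.28, 10.53 and 10.11 at 12 months and 7.98, 9.03 and 9.13 at 3 months, a difference of 1.59 ± 0.36 (SE; adjusted p 0.0452, limma). With any single array left out its adjusted p was 0.0673 to 0.144 and the call was lost. Akap9, a large scaffold of the centrosome and Golgi, was at 0.83 ± 0.22 (SE; adjusted p 0.0657, limma).

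The other effector of cyclic AMP, EPAC, acts through RAP GTPases and proteins of the release site. Of 4 tested genes of this list 2 were called. Rims2, a release-site protein that binds EPAC2, had log2 levels of 5.37, 5.66 and 6.41 at 12 months and 3.05, 3.00 and 3.41 at 3 months, where only the third array was well above background. Its difference was 2.66 ± 0.33 (SE; adjusted p 0.0100, limma), and it was 0.77 with normexp background correction. The Rims2 probe passed the filter on low values through the 12-month arrays, on which it was high. Rims2 was called with any single array left out, but those fits kept the same filter and its low 3-month values.

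Rap1b, a RAP GTPase switched on by EPAC, had log2 levels of 9.87, 9.44 and 10.96 at 12 months and 8.18, 7.95 and 8.30 at 3 months, a difference of 1.95 ± 0.41 (SE; adjusted p 0.0379, limma). It was called without 12-month array 2 (0.0263), and without each of the other 5 arrays its adjusted p was 0.0687 to 0.113. Rap1a, its close paralogue, was at -0.28 ± 0.27 (SE; adjusted p 0.485, limma), and probes for near-identical paralogues could share signal.

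Among the other phosphodiesterases 1 of 11 tested genes was called. Pde4a, a phosphodiesterase specific to cyclic AMP, had log2 levels of 7.15, 6.91 and 7.70 at 12 months and 5.34, 6.22 and 4.75 at 3 months, a difference of 1.82 ± 0.43 (SE; adjusted p 0.0487, limma). It was called without 3-month array 2 (0.0359), and without each of the other 5 arrays its adjusted p was 0.05001 to 0.143. Pde2a, which is stimulated by cyclic GMP, was at -0.99 ± 0.33 (SE; adjusted p 0.0968, limma). The median of the list was 0.08, so Pde3b and Pde4a stood beside phosphodiesterases that lay on both sides of 0.

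The relatives and coactivators of CREB were higher at 12 months in 6 of 6 tested genes, and 1 of them was called. Atf2, a transcription factor that also recognises cyclic AMP response elements, had log2 levels of 6.42, 6.36 and 6.84 at 12 months and 3.85, 3.53 and 3.17 at 3 months, the last of them not well above background. Its difference was 3.02 ± 0.28 (SE; adjusted p 0.00437, limma), and it was 1.17 with normexp background correction. The Atf2 probe passed the filter on low values through the 12-month arrays, on which it was high. Atf2 was called with any single array left out, but those fits kept the same filter and its low 3-month values. Crebbp, the coactivator CBP, was at 1.11 ± 0.39 (SE; adjusted p 0.111, limma). With the 75th percentile shift 4 of the 6 genes were higher and with normexp 5 of 6.

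Of 10 tested genes known as CREB targets, 7 were higher and 3 lower, and 0 were called at the adjusted threshold (limma). Nr4a3 and Sik1, which make up 2 of the 3 lower genes, were well above background on no 12-month array, and their bounds give no direction. At the study's threshold there were 3 higher and 2 lower, 1 of the lower being Sik1, beside 9.8% and 9.67% of named genes. Dusp1, a phosphatase of MAP kinases, was at 1.55 ± 0.38 (SE; adjusted p 0.0537, limma), and Pck1, an enzyme of gluconeogenesis, was at -1.05 ± 0.31 (SE; adjusted p 0.0794, limma). Fos, named after its values were seen, had log2 levels of 10.02, 6.33 and 10.33 at 12 months and 6.27, 6.33 and 4.31 at 3 months, so that the second older array was level with the young ones, and its adjusted p was 0.106 (limma).

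Scaling shifted the smaller values. The median difference of all tested probes was -0.17 as reported and -0.40 with the 75th percentile shift, and the medians of the members and of each pathway list lay above those medians under both scalings. In absolute terms the shift turned the medians of the other cyclases, the other PKA subunits, the other phosphodiesterases and the Gs list below 0, at -0.33, -0.07, -0.19 and -0.13. The median of the members was 0.58 under the same shift, with the same 6 higher and 2 lower.

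Where the start of a member was covered by a RefSeq promoter window of 300 bases (250 before and 50 after the start, assembly GRCr8), the window was searched on both strands for the full cyclic AMP response element TGACGTCA and its core TGACG, which the full element contains. Windows were at hand for 6 of the 10 genes, 7 windows in all, and Pde3b, Adcy3, Adcy6 and Adcy8 had none. The full element was in 0 of the 7 windows and in 1.83% of all 33469 windows. The core was in 3 of the 7 windows and in 21.2% of all windows. Among 16 windows of the CREB target list, 18.8% held the full element and 56.2% the core.

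The stretches of 30 bases that hold the core before the starts of Creb1, which was called here, and of Prkaca, which was not, are shown for comparison, read along the strand of the gene, with the core in capitals (CGTCA is the core on the opposite strand). The Creb1 stretch lies at chr9:73397427-73397456 on the plus strand, with cores at positions -80 and -59 from the start. The Prkaca stretches lie on the minus strand at chr19:41083365-41083394 and chr19:41083251-41083280, with cores at positions -193 and -79.
Creb1: agTGACGcggcggaggtgtagttTGACGcg
Prkaca, farther from the start: gtctgcaactcgCGTCActcatccaggagc
Prkaca, nearer to the start: ggactgcgggggCGTCAcggacagaggact
These matches are letters in a window. No binding was measured, and Creb1 and Prkaca share the core while their differences were 1.21 and -0.29.

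Islets hold several cell types, and in a bulk sample fewer cells of a type and less RNA per cell cannot be told apart. Several marker lists differed between the ages beside the cyclic AMP genes. All 7 tested markers of nerve and Schwann cells were lower at 12 months, 2 of them at an adjusted p under 0.05 (limma), and the mean log2 level of the list was 7.35 to 8.14 at 12 months and 8.72 to 9.41 at 3 months. All 5 stromal markers were higher, with a list level of 11.5 to 12.6 against 10.1 to 10.9. Of 5 endothelial markers 4 were lower, with a list level of 9.49 to 10.1 against 10.3 to 10.7. The other, Pecam1, was higher at 1.23 (adjusted p 0.124, limma). Cdh5, among the lower ones, was well above background on no 12-month array, and its fall is a bound of at least 1.54-fold. The level of 5 beta cell markers was 16.6 to 17.0 against 15.8 to 16.0, within which Slc30a8 was at 3.71 (adjusted p 0.00904, limma), Iapp at 0.95, Ins1 at 0.10, Ins2 at -0.12 and Nkx6-1 at -0.22. The median difference of these 5 markers was 0.10, and it was -0.59 with the 75th percentile shift. The level of 7 alpha, delta and PP cell markers was 14.5 to 14.6 against 13.9 to 14.0. The part of these cell types in the differences of Adcy3, Creb1 and Pde3b was not tested.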

How the data were processed

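Islet RNA of 2 ages of rat (3 and 12 months) was hybridised to 6 arrays, which were grouped by the age in the labels. Per the file headers, the deposited scanner files hold intensity per spot, read with Agilent Feature Extraction 11.0.1.1. The intensity after background subtraction was used here, uncorrected medians in an alternative, and other columns for the software's flags. Quantile-normalized log2 values of 12145 probes, deposited by the authors with no stated filter, served as an alternative.

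The log2 intensity of 24684 probes was averaged over spots not marked as outliers and quantile normalized. Probes well above background on at least 3 arrays were kept (17944), and 17941 could be tested. Ages were compared with limma 3.58.1 (R 4.3.3; lmFit and eBayes without a block, two-sided), a step tested on simulated data first. Names came from RefSeq accessions matched to a table of assembly GRCr8 (14294 probes matched); no coordinates of probes are given. Where a gene had several probes, the brightest by mean log2 level stood for it. Member and pathway genes and all lists were chosen with earlier results of these data known. All members were named; of each pathway list, genes with an adjusted p under 0.05 were named and, where fewer than 2 passed, the 2 with the lowest unadjusted p. One gene so chosen is counted but not reported here. Arrays have no read depth, and their number limits the precision.

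Alternatives were the 75th percentile shift, normexp (offset 50) on median signals, the authors' table, 2 other filters, trend and robust variances, array weights, replicate blocks, only the 4 arrays with a common name ending, leaving out single arrays, plain and paired versions of the methods' test, an adjusted p under 0.1 and the mean of all probes of a gene. The other Creb1 probe was added after the data had been seen.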

Additional observations from a re-analysis of the deposited data

How the results depend on the processing

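No member changed sign under any alternative run, and neither did any pathway gene chosen by its adjusted or lowest unadjusted p. Genes named for other reasons, such as Gnas, Pclo and Crem, were not followed through the alternatives. Members called at an adjusted p under 0.05 (2 as reported) were 1 with the 75th percentile shift, with trend and robust variances and with the mean of all probes, 0 with the methods' t-test and on only the 4 arrays with a common name ending, and 0 to 2 with an array left out. At an adjusted p under 0.1 Adcy3 was called as well. Pathway genes so called (7) were 20 with array weights, 13 at an adjusted p under 0.1, 2 by the methods' t-test, 0 with the 4 arrays and 3 to 8 with an array left out. Tested probes so called (1502, of them 955 higher) were 2339 without a filter, 5693 with array weights and 3823 at an adjusted p under 0.1. They were 435 with the methods' t-test, 0 with the 4 arrays and 208 (without 12-month replicate 1) to 2167 with an array left out. With the 75th percentile shift they were 1719, of them 794 higher. The array weights were 8.56 for 12-month array 1 and 0.45 and 0.70 for 12-month arrays 2 and 3. The weighted 12-month means thus lay close to array 1, which limits the counts with array weights.

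At the study's threshold, members (3) were 1 with normexp and 2 to 4 with an array left out. Pathway genes (16) were 8 with normexp, 9 when all 6 arrays had to be above background, 10 by the methods' t-test and between 12 and 16 with an array left out. Probes (3952, of them 1819 higher) were 2102 with normexp, 2379 in the authors' table, 2603 with the 4 arrays and 3121 to 4885 with an array left out; with the shift they were 4920, of them 1388 higher.

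Same-numbered arrays showed no positive correlation: their deviations from their age means correlated at -0.01, -0.31 and -0.26. The third pair holds a 12-month array without a number in its label. With 3 arrays an age, these values cannot tell whether the arrays were paired by design. With the replicate block of 3 pairs 97 probes, 0 members and 1 pathway gene had an adjusted p under 0.05. With the replicate block of the 2 numbered pairs there were 0 probes, 0 members and 0 pathway genes. The paired t-test over 3 pairs gave 1 probe, 0 members and 0 pathway genes, and at the study's threshold 1552 probes, 7 pathway genes and 2 members, both higher, without Adcy3. Why these counts differ was not tested.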

Other observations

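Probes of the same gene differed in several places. Crem, whose products include an inducible repressor of cyclic AMP-driven transcription, was at 0.15 ± 0.31 (SE; adjusted p 0.762, limma) on its brightest probe. On its other probe the log2 level was 7.98, 7.71 and 7.72 on the 12-month arrays and 4.799, 5.83 and 6.63 on the 3-month arrays, a difference of 2.05 ± 0.46 (SE; adjusted p 0.0447, limma). The arrays of the ages did not overlap on that probe. Pclo, a protein of the release site, was at -0.29 ± 0.34 (SE) on its brightest probe and at 1.20 ± 0.46 (SE; adjusted p 0.130, limma) on the other. Of the 7 pathway genes with several tested probes, 4 had the same sign on all of them. These genes were chosen after their values were seen.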
